A study of Mus musculus with 8 samples.

Results

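Gal, the mouse gene for the neuropeptide precursor of galanin, is 1 of 12060 genes tested and 1 of 55487 genes in the deposited count table. It was found by its Ensembl identifier (ENSMUSG00000024907) and was chosen by its counts, which were higher with NAM/PN than with vehicle in these same libraries. Its difference between the conditions is therefore given as a description, without a test.

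Muscle stem cells (MuSCs), the resident cells that rebuild skeletal muscle, were isolated by FACS from aged wild-type C57BL/6JRj male mice and cultured for 72 hours in growth medium with vehicle (1% DMSO) or with NAM/PN, a combination of nicotinamide and pyridoxine. The labels call the mice old, and the study's culture protocol gives 23 to 24 months. That protocol describes a longer culture and a lower DMSO content of the vehicle than the labels of these libraries. The labels give 1 concentration for the combination, 1 mM, and no library received nicotinamide or pyridoxine alone. For DMSO, the labels give 1% in the vehicle libraries and no value for the NAM/PN libraries. The 8 mice formed 4 pools of 2 mice. Each pool gave 1 vehicle and 1 NAM/PN library, and equal numbers mark libraries of the same mice. The p-values cover the spread among these 4 pools per condition. The study sorts mouse MuSCs for CD34 and ITGA7 and against CD31, CD45, CD11B and SCA1, and the RNA is that of the whole culture after 3 days. In such bulk RNA, more cells that express Gal and more Gal RNA per cell cannot be told apart.

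Libraries held between 6472484 and 10163101 counts from the 3′ ends of transcripts. Vehicle 3 and NAM/PN 4 stood apart from the other libraries of their conditions. Pairs of libraries within a condition differed by a chi-square of 22.8 to 28.3 per degree of freedom when neither of them was in the pair, and by 64.4 to 82.2 when one of them was. The ribosomal RNA gene CT010467.1 held 18.7% of the counts in vehicle 3 and 9.09% to 9.59% in the remaining vehicle libraries, against 5.22% in NAM/PN 4 and up to 11.6% in the other NAM/PN libraries. Values without these libraries are given for Gal and for several of the other results.

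Galanin is made as a longer precursor that enters the secretory pathway, where enzymes cut it at pairs of basic residues and amidate its end. The released peptide acts on the receptors GALR1, GALR2 and GALR3, which couple to G proteins. It is best known from neurons, where its gene responds to axon injury and to cytokines that signal through gp130.

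The gene lies on the minus strand of chromosome 19 from 3409915 to 3414544 (GRCm38, GENCODE M21) and has 2 annotated protein-coding transcripts of 6 exons each. Gal-202 has 788 bases and 124 codons, and Gal-201 has 672 bases and 141 codons. The counts are per gene and do not separate them. Both transcripts hold a pair of lysine and arginine codons at codons 31 and 63, which enclose 30 codons. This stretch is shown because it encodes the secreted peptide. It runs from coding base 91 to 192 of Gal-202, the capitals mark the codon pairs at which the precursor is cut, and the last codon before the second pair is a glycine codon, whose residue is used for the amidation.

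Gal-202 galanin stretch: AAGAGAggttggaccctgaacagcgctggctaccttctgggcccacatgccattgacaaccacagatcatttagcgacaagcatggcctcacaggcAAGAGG

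The 250 bases before the transcription start (RefSeq, GRCm38.p6, chr19:3414545-3414794, minus strand, written 5′ to 3′ along the gene) are shown because the genes that were most like Gal are compared with it below by the same motifs.

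Gal upstream: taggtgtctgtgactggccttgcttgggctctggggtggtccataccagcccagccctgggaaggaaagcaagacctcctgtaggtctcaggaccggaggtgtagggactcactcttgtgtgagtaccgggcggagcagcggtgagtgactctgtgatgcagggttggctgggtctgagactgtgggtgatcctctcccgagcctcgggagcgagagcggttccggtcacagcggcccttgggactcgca

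The RefSeq promoter window, which adds the first 50 transcribed bases, had a GC content of 63.3%, against a median of 52.7% over 32851 promoters of 27025 genes. Of 10 short motifs searched on both strands, 8 did not occur in it. These were the full cyclic AMP response element TGACGTCA (in 1.79% of all promoters), the AP-1 site TGACTCA (5.2%), the E-box CANNTG (72.3%), its MYOD form CAGCTG (16.3%), the STAT site TTCNNNGAA (8.3%), the TCF/LEF core CTTTG (53.9%), the estrogen response element (0.07%) and the TATA box TATAAA (13.6%). The other two, the short cyclic AMP element TGACG (20.8%) and the antioxidant element core TGACNNNGC (12.4%), overlapped in 1 match, TGACGCGGC, which begins at base 20 of the transcript. A match or its absence describes these letters only, since no binding was measured.

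Gal was expressed in every library and was higher with NAM/PN in every pool. The vehicle libraries held 1823, 1205, 863 and 1620 Gal counts in pools 1 to 4, and the NAM/PN libraries held 9200, 6024, 6637 and 9588. Scaled to the normalized library size as CPM, these were 216, 150, 107 and 176 with vehicle and 1133, 839, 1011 and 896 with NAM/PN. The conditions did not overlap, and the lowest NAM/PN library stood 3.89 times above the highest vehicle library. The mean level was 162 ± 45.9 CPM with vehicle and 970 ± 130 with NAM/PN (SD, n = 4), and the ratio of means was 5.98. The log2 fold change fitted by edgeR was 2.58 with a standard error (SE) of 0.20.

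As a share of all counts in a library, Gal took from 0.00972% in vehicle 3 (95% Clopper-Pearson interval 0.00908% to 0.0104%) to 0.0215% in vehicle 1 (0.0205% to 0.0225%). With NAM/PN its share lay between 0.0841% in pool 2 (0.0820% to 0.0862%) and 0.113% in pool 1 (0.110% to 0.115%). These intervals cover counting error only. The highest and lowest vehicle libraries differed by 2.03 times and the NAM/PN libraries by 1.35 times. Counting error alone gives a coefficient of variation of 1.02% to 3.40% for the Gal count of a library.

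Within pools, the NAM/PN level was 5.25, 5.61, 9.48 and 5.08 times the vehicle level in pools 1, 2, 3 and 4. The log2 ratios were 2.39, 2.49, 3.24 and 2.34, with a mean of 2.62 and an SD of 0.42. Pool 3 stood above the others, and its vehicle library was the one with the highest share of CT010467.1. Without vehicle 3 the fitted log2 fold change of Gal was 2.42, without the whole of pool 3 it was 2.40, and without vehicle 3 and NAM/PN 4 it was 2.45. When CT010467.1 and the genes of the mitochondrial genome were removed before normalization, it was 2.58.

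**Figure D1:**
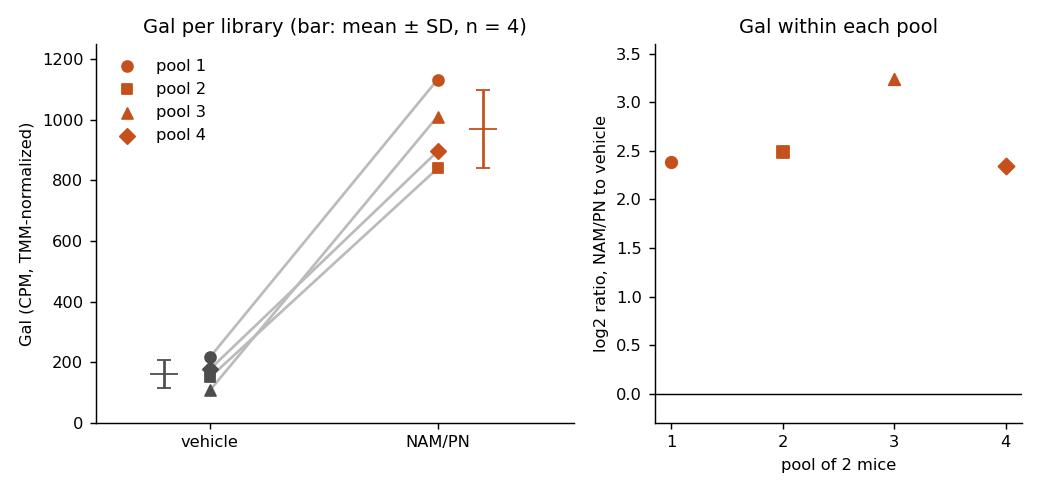
Left, Gal in CPM (y axis) in each vehicle and NAM/PN library, with a line joining the libraries of each pool and bars for the mean ± SD of each condition (n = 4), and right, the log2 ratio of NAM/PN to vehicle (y axis) in each pool. All 4 NAM/PN libraries, between 839 and 1133 CPM, lay above the 4 vehicle libraries, between 107 and 216 CPM, and pool 3 had the highest ratio, 3.24.

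Gal moved from the upper levels of the vehicle transcriptome to near its top. Counts of 3′ ends are not divided by transcript length, and on this scale Gal ranked 766, 1198, 1792 and 982 among the tested genes in vehicle pools 1 to 4. With NAM/PN it ranked 61, 101, 77 and 102. Its gain of 807 CPM was at position 4 among all tested genes.

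Among the 9212 tested genes whose average log2 CPM was 3 or more, the log2 fold change of Gal was at position 9, and at 7 to 12 over the alternatives. Among all 12060 tested genes it was at position 42, and most of the larger values belonged to genes below that level. That second position was not stable, as it was 50 to 152 without 1 library (152 without vehicle 2, 149 without vehicle 3), 60 to 103 without 1 pool, 156 with the pool as a block and, with more low genes included, 1729 with DESeq2 and 1796 without a filter. The 100 genes nearest to Gal in level had a median absolute log2 fold change of 0.18, and the largest was that of Myog, the transcription factor of myocyte differentiation (-2.22). Gal also varied more within conditions than most of these 100 genes, which were chosen by their mean log2 CPM over the 8 libraries (8.44 to 8.76). Gal itself had that level in no library, as it was at 6.74 to 7.76 with vehicle and 9.71 to 10.1 with NAM/PN. Its pooled SD was 0.33 on the log2 scale, against a median of 0.23 in those 100 genes, of which 83 had a smaller SD. The spread lay mainly with vehicle, where the SD was 0.43, against 0.19 with NAM/PN. The coefficient of variation between replicates that edgeR fitted was 0.21 for Gal, against 0.20 for the trend over genes of its average level.

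**Figure D2:**
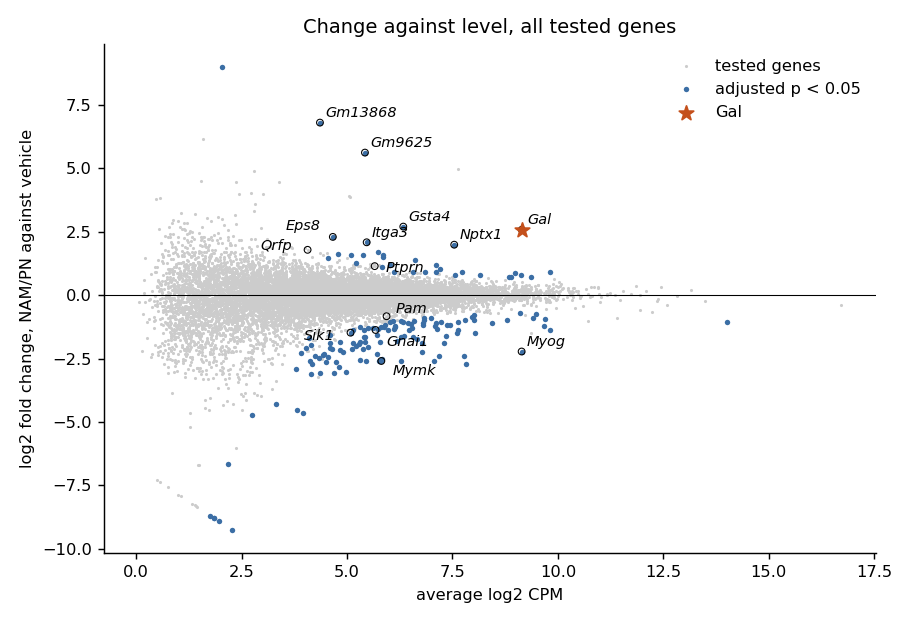
Log2 fold change, NAM/PN against vehicle (y axis), against average log2 CPM (x axis) for the 12060 tested genes, with called genes in blue, Gal as a star and circles around other genes given in the text. Gal sits at an average of 9.14 and a change of 2.58, above the other genes of its level.

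Over all genes, the quasi-likelihood test of edgeR, adjusted by Benjamini-Hochberg, called 154 of 12060 genes (1.28%), 34 higher (0.282%) and 120 lower (0.995%), and the median log2 fold change was -0.0022. All 4 NAM/PN libraries were above all 4 vehicle libraries for 2.79% of tested genes, and all were below for 4.42%. The gene lists that follow were read against these shares, and Gal was left out of each of them.

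No galanin receptor was detected. Galr1, Galr2 and Galr3 had 0 counts in all 8 libraries, as did Galp, which encodes the galanin-like peptide. The floor of 3 counts in a library corresponds to 0.280 to 0.457 CPM, so receptor RNA below that level was not detectable at this depth. Spx, the gene of spexin, a peptide that also acts on galanin receptors, had 22 counts in NAM/PN 3 (3.35 CPM) and 0 counts in the other libraries.

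Gal took most of the neuropeptide precursor counts with NAM/PN. Of 55 other genes for peptide precursors, 36 had 0 counts in every library, among them Npy, Vip, Sst, Tac1 and Nts, and 6 were tested. Of the 6, edgeR called 0, with 2 at an unadjusted p under 0.05, and DESeq2 called 1, Qrfp. Their median log2 fold change was -0.75, which was 0.044 without vehicle 2 and 0.45 without pool 2. Summed over the 55 genes, the other precursors held 121 to 163 CPM with vehicle and 97.9 to 185 with NAM/PN, ranges that overlap. Gal was 64.0%, 50.7%, 40.8% and 51.9% of the precursor counts in vehicle pools 1 to 4 and 91.6%, 87.7%, 91.2% and 82.9% in NAM/PN pools 1 to 4.

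The precursor with the most counts after Gal was Sct, which encodes secretin. It stood at 63.5, 85.1, 126 and 119 CPM with vehicle and 53.4, 55.7, 51.2 and 109 with NAM/PN. It was lower with NAM/PN in every pool, but the conditions overlapped, and the log2 fold change was -0.54 (SE 0.27, adjusted p = 0.579). The overlap rested on NAM/PN 4, and without that library the log2 fold change of Sct was -0.88 (adjusted p = 0.101 by edgeR). Qrfp, the precursor of an RF-amide peptide, stood at 12.4, 8.06, 5.19 and 3.92 CPM with vehicle and 10.3, 24, 21.8 and 46.1 with NAM/PN. It was higher in 3 of 4 pools, with a log2 fold change of 1.79 (SE 0.52, adjusted p = 0.118 by edgeR), and it was also called by edgeR when no filter on low counts was used. Without NAM/PN 4, its highest library, the log2 fold change of Qrfp was 1.33 (adjusted p = 0.402 by edgeR). Apln, the precursor of apelin, averaged 12.3 ± 5.75 CPM with vehicle and 21.5 ± 2.28 with NAM/PN (SD, n = 4), with a log2 fold change of 0.81 (SE 0.44, adjusted p = 0.643).

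**Figure D3:**
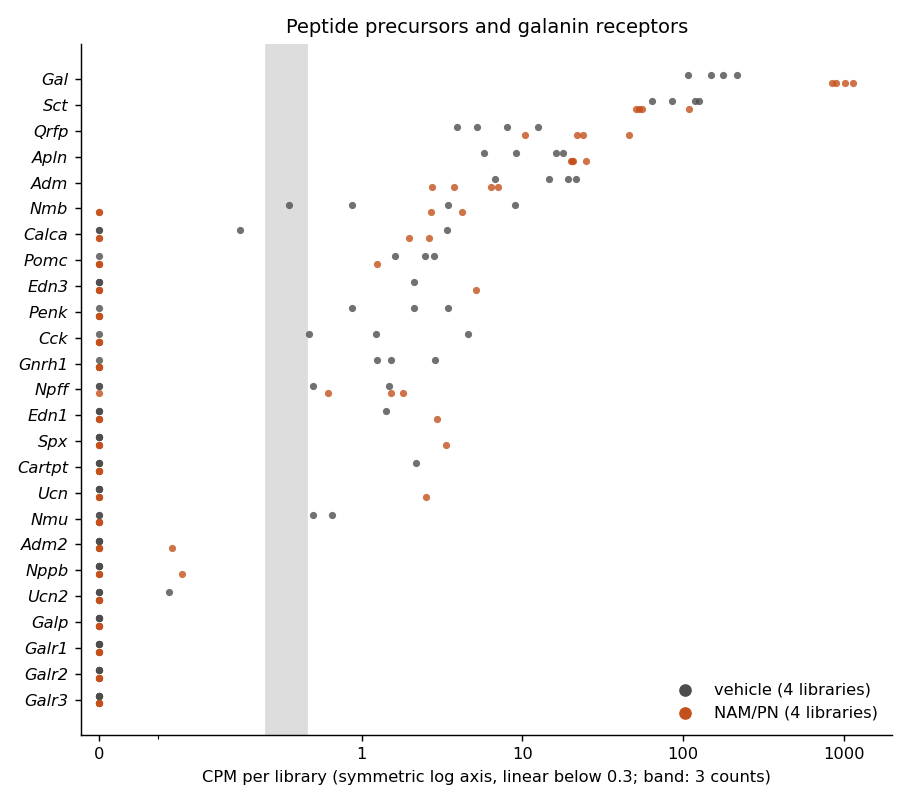
CPM (x axis, log scale above 0.3 and linear below) of Gal, the other peptide precursors with any count, Galp and the 3 galanin receptors, 1 row per gene and 1 point per library, with vehicle in gray, NAM/PN in orange and a gray band at the level of 3 counts. The NAM/PN points of Gal lie apart from its vehicle points, those of Sct and Qrfp overlap, and Galp and the receptors lie at 0.

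Genes that cut precursors and store peptides did not pass the test. Of 24 such genes, 7 had 0 counts in every library, including Pcsk1, the prohormone convertase of regulated secretion, and the granule genes Chgb and Scg3. The related convertase Pcsk2 had 70 counts over all libraries and was not tested. Of the 11 tested genes 0 were called by edgeR and 0 by DESeq2, with 2 at an unadjusted p under 0.05, and the median log2 fold change was -0.22. The sign of this median was not stable, as it was 0.11 without vehicle 2, 0.16 without pool 2, 0.036 without pool 3, 0.054 without vehicle 3 and NAM/PN 4, and -0.60 with the pool as a block.

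Furin, a convertase of the constitutive pathway, had the highest level, with 166 ± 30.1 CPM with vehicle and 143 ± 66.8 with NAM/PN (SD, n = 4) and a log2 fold change of -0.22 (SE 0.25, adjusted p = 0.912). Without NAM/PN 4, where it was highest, the value for Furin was -0.60 (adjusted p = 0.162 by edgeR). Cpd, a carboxypeptidase that trims basic residues, differed by 0.18 (SE 0.22, adjusted p = 0.914). Pam, which amidates the end of peptides such as galanin, stood at 72.5, 75.2, 113 and 52.3 CPM with vehicle and 49.6, 41.5, 50.9 and 33.7 with NAM/PN. Its conditions did not overlap, but its log2 fold change of -0.83 (SE 0.26) had an adjusted p of 0.156. Ptprn, a membrane protein of dense-core granules, was named after its values were seen. It stood at 42.2, 18.4, 23.1 and 41.4 CPM with vehicle and 52.3, 86.2, 36.1 and 102 with NAM/PN, with a log2 fold change of 1.14 (SE 0.34, adjusted p = 0.132). Pam and Ptprn were called when no filter on low counts was used.

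Among G proteins and effectors to which galanin receptors couple, no tested gene was called. Of 21 genes 4 had 0 counts in every library, among them the potassium channel genes Kcnj3 and Kcnj6, and 14 were tested. Of these, 0 were called by edgeR or DESeq2, 2 had an unadjusted p under 0.05, and the median log2 fold change was -0.15, with values from -0.43 (without NAM/PN 4) to -0.14 when libraries or pools were left out. Gnai2, a G protein subunit that inhibits adenylyl cyclase, averaged 468 ± 28.1 CPM with vehicle and 439 ± 37.1 with NAM/PN (SD, n = 4), with an adjusted p of 0.953. Gnaq, which activates phospholipase C, averaged 181 ± 28.1 and 127 ± 10.6 CPM. Its conditions did not overlap, and its log2 fold change of -0.51 (SE 0.18) had an adjusted p of 0.259. Gna11, of the same subfamily, differed by 0.30 (SE 0.19, adjusted p = 0.728). Gnai1, named after its values were seen, had the largest fitted difference of the other subunits, -1.37 (SE 0.39, adjusted p = 0.103), and was called without the filter and without NAM/PN 2.

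Of 24 genes of gp130 cytokine signaling 16 were tested, and the 3 with the most counts were not called. The shared receptor Il6st (gp130) differed by -0.31 (SE 0.22, adjusted p = 0.782), the kinase Jak1 by 0.01 (SE 0.21, adjusted p = 0.998) and the feedback inhibitor Socs2 by -0.67 (SE 0.22, adjusted p = 0.19). Il6, Osm and Cntfr had 0 counts in every library. Lif, a cytokine known to raise Gal in injured neurons, had 65 counts over all libraries and was not tested. The median of the list was -0.056.

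Of 19 genes of the CREB and cyclic AMP response, 18 were tested and 1 was called, lower. Sik1, a kinase gene induced by cyclic AMP, stood at 46.8, 33.5, 61.3 and 56.7 CPM with vehicle and 17.8, 7.94, 18.7 and 26.3 with NAM/PN. All NAM/PN libraries were below all vehicle libraries, and the log2 fold change was -1.48 (SE 0.35, adjusted p = 0.0422 by edgeR). This call was lost without any 1 library other than NAM/PN 4 and without any pool, and its adjusted p ranged from 0.00138 to 0.229 over the alternatives. The protein kinase A subunit genes Prkar1a, Prkaca and Prkar2a differed by -0.19, -0.10 and -0.10, with adjusted p-values of 0.833, 0.96 and 0.967. The median of the list was -0.11.

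Genes that respond to axon injury in neurons were not called in these cultures. Of 20 genes, 7 had 0 counts in every library, among them Atf3, Sprr1a, Npy and Vip, and 11 were tested with 0 called by edgeR or DESeq2 and 1 at an unadjusted p under 0.05. The transcription factor genes Jun, Sox11 and Klf6 had the highest levels. Jun averaged 260 ± 2.00 CPM with vehicle and 254 ± 69.6 with NAM/PN (SD, n = 4), with an adjusted p of 0.99. Sox11 differed by 0.26 (SE 0.19, adjusted p = 0.796) and Klf6 by -0.57 (SE 0.20, adjusted p = 0.286). The median was -0.27, and it was 0.10 without vehicle 3 and NAM/PN 4.

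**Figure D4:**
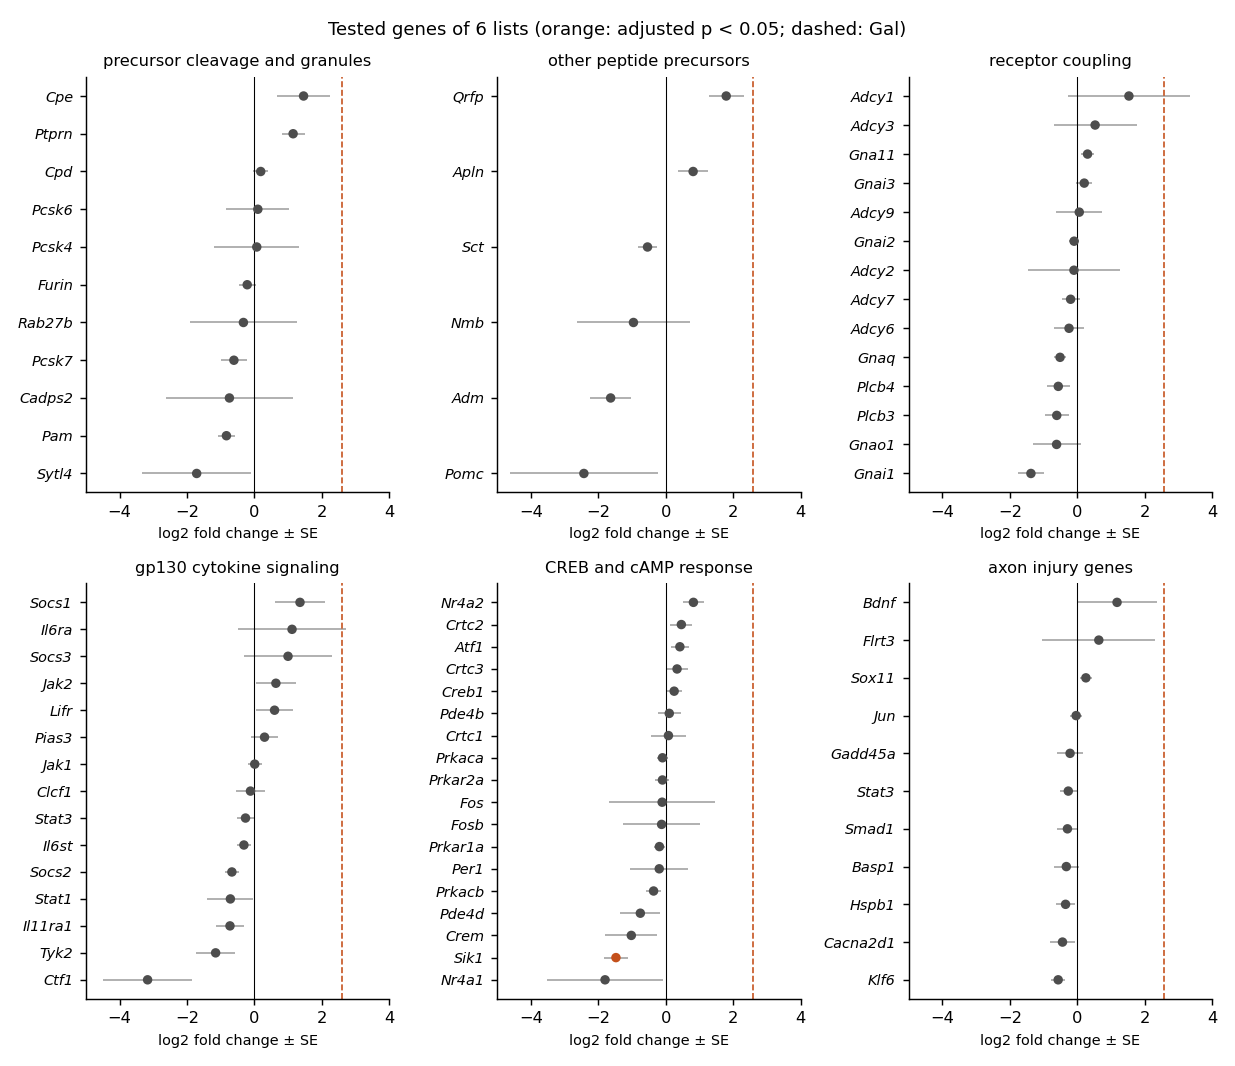
Log2 fold change, NAM/PN against vehicle (x axis), of tested genes (rows) in the 6 lists of genes related to galanin, with lines for the SE, called genes in orange and a dashed line at the value of Gal. Sik1, called lower, is the orange point, and all points shown lie below the 2.58 of Gal.

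Genes near Gal on chromosome 19 were not called by edgeR or DESeq2, and 0 of the 5 tested had an unadjusted p under 0.05. No annotated gene overlapped it. Within 200 kb, the nearest gene was Tesmin, 2.1 kb away, which had 32 counts over all libraries and was not tested. Cpt1a, which imports fatty acids into mitochondria, lay 24.2 kb away and differed by -0.22 (SE 0.21, adjusted p = 0.887). Ppp6r3, a phosphatase subunit 40.4 kb away, differed by -0.07 (SE 0.20, adjusted p = 0.983). Mrpl21, Ighmbp2 and Lrp5, at 117.1, 126.9 and 170.3 kb, had adjusted p-values of 0.999, 0.943 and 0.912.

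The genes whose pattern over the 8 libraries was most like that of Gal were found by the root-mean-square difference of log2 CPM, centred on the mean of each gene, over the other 9211 genes at that level (average log2 CPM of 3 or more). The median distance of these genes was 1.40. The 10 nearest were at 0.45 to 0.68 and had fitted log2 fold changes of 1.46 to 2.70. In all 10 the conditions did not overlap, which the measure favors, and no test is given for them by this route. In order of distance they included Nptx1, Gsta4, Itga3, Hoxa11os, Specc1, Blvrb, Rpia, Tiam1 and Gdpd5.

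Nptx1, which encodes a secreted pentraxin of synapses, was nearest at 0.45. It stood at 86.6, 86.9, 69.8 and 56.2 CPM with vehicle and 326, 321, 268 and 275 with NAM/PN. Gsta4, a glutathione S-transferase gene, stood at 15.6, 23.9, 26.8 and 19.3 CPM with vehicle and 185, 140, 89.8 and 142 with NAM/PN. Both had their vehicle libraries in another order than Gal, as Nptx1 was lowest in vehicle 4 and Gsta4 was highest in vehicle 3, where Gal was lowest. Itga3, an integrin subunit gene, averaged 16.8 ± 3.57 CPM with vehicle and 71.1 ± 29.3 with NAM/PN (SD, n = 4).

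Lower in the order, Blvrb (biliverdin reductase B) averaged 29.2 ± 5.85 CPM with vehicle and 86.4 ± 16.6 with NAM/PN (SD, n = 4), and Specc1 averaged 12.3 ± 2.75 and 33.7 ± 6.95 CPM. Rpia, an isomerase of the pentose phosphate pathway, averaged 10.8 ± 3.97 and 34.5 ± 15.6 CPM. Tiam1, an activator of the GTPase RAC, averaged 5.49 ± 2.42 and 19.9 ± 5.06 CPM. Gdpd5, a phosphodiesterase gene, averaged 4.14 ± 2.6 and 11.8 ± 1.54 CPM. Hoxa11os is annotated opposite Hoxa11, and since the strand setting of the counting is not given, reads of the pair may not be separated.

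The order below the first genes depended on the measure. Nptx1 and Gsta4 stayed among the 10 nearest in 6 of 6 alternatives with the same distance (another prior count, another normalization or 1 pool left out) and Itga3 in 5, but Gdpd5 in 0. With Pearson correlation as the measure, 2 of the 10 genes (Nptx1 and Specc1) remained. Of the 6 genes with a promoter in the RefSeq table, 5 held an E-box, which 72.3% of all promoters hold, 3 held CTTTG (53.9%), and 0 held either motif of the Gal window, TGACG (20.8%) or TGACNNNGC (12.4%). With 6 promoters these counts are given as a description.

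**Figure D5:**
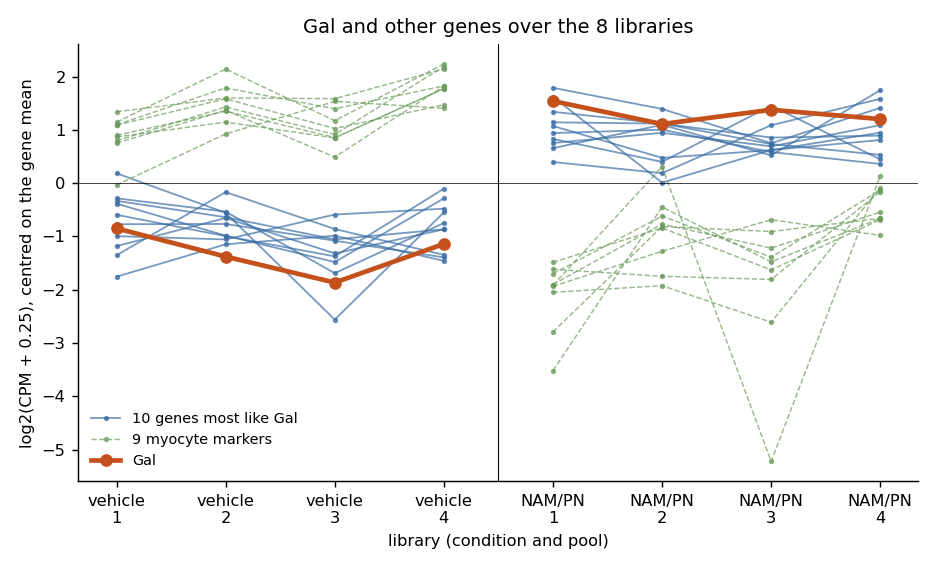
Log2 CPM with 0.25 added, centred on the mean of each gene (y axis), in the 8 libraries (x axis) for Gal, the 10 genes most like it and 9 myocyte markers. Gal and the 10 genes lie low with vehicle and high with NAM/PN, and the myocyte markers lie the other way round.

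Of the other genes called higher at that level, those with log2 fold changes next above that of Gal were Gm13868 (6.81), Gm9625 (5.62) and Gsta4 (2.70), and those next below it were Eps8 (2.30), an actin regulator, Itga3 (2.09) and Nptx1 (1.99). Gm13868 and Gm9625 are processed pseudogenes, whose reads may come from similar genes, and their levels rested on few libraries. The call of Gm13868 was lost in 7 of 21 alternatives, that of Gm9625 in 9 of 21 and that of Eps8 in 6 of 22, each of them when NAM/PN 1 or pool 1 or 2 was left out, and those of both pseudogenes in the robust fit. Gm13868 stood at 0, 0, 0 and 1.31 CPM with vehicle and 103, 51.3, 0 and 6.91 with NAM/PN. Gm9625 stood at 0.83, 0.124, 5.31 and 0.544 CPM with vehicle and 142, 189, 3.5 and 0.187 with NAM/PN, so it was higher in 2 of 4 pools. Unlike them, Gal was higher in all 4 pools, as 8.56% of tested genes were.

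The cultures expressed the genes of the myogenic lineage. Of 9 marker genes of MuSCs and myoblasts, 8 were tested and 0 were called by edgeR or DESeq2, with 2 at an unadjusted p under 0.05. Myod1, a transcription factor of committed myogenic cells, differed by -0.19 (SE 0.15, adjusted p = 0.824), and the intermediate filament gene Des by -0.41 (SE 0.18, adjusted p = 0.46). Without vehicle 3 and NAM/PN 4, edgeR called Des (-0.62, adjusted p = 0.0251) and the sort marker gene Cd34 (-0.99, adjusted p = 0.0348) lower, of which Cd34 was named after its values were seen. The summed level of the list was 2850 to 3298 CPM with vehicle and 2254 to 2849 with NAM/PN.

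Markers of differentiating myocytes moved with the Gal difference in the opposite direction. Of 10 genes, 8 were called lower by edgeR, against 0.995% of tested genes, and their median log2 fold change was -2.41. Myog stood at 680, 1042, 566 and 1428 CPM with vehicle and 108, 237, 173 and 277 with NAM/PN, without overlap, with a log2 fold change of -2.22 (SE 0.29, adjusted p = 0.000232). The other called genes were Acta1, Mylpf, Tnnt3, Myh3 and Tnnc2 of the contractile apparatus and Mymk and Mymx, which fuse myoblasts, with log2 fold changes from -3.03 to -1.90. Without vehicle 3 and NAM/PN 4, 8 of the 10 genes were called, and without pool 2, 4 were. With the pool as a block 9 were called. The summed level of the list was 1487, 2270, 1591 and 2866 CPM with vehicle and 193, 498, 338 and 595 with NAM/PN in pools 1 to 4. In both conditions pool 1 had the highest Gal level and the lowest sum, but vehicle 3, with the lowest Gal level, had the next lowest sum. The part of differentiation state in the Gal difference was not tested.

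Markers of neurons and Schwann cells were low, and those of neurons that were tested had positive fold changes. Of 12 neuron markers, 3 (Snap25 and Rbfox3 among them) had 0 counts in every library, 3 were tested, 1 had an unadjusted p under 0.05 and 0 were called by edgeR or DESeq2. The sum of the 12 was 21.2 to 50.0 CPM with vehicle and 47.2 to 68.9 with NAM/PN, against the 839 to 1133 CPM of Gal alone. The median log2 fold change of the 3 tested neuron markers was 0.97, and it was 0.75 to 1.63 over 21 alternatives. Uchl1, the neuron marker with the most counts, was above all vehicle libraries in all NAM/PN libraries, as were 2.79% of tested genes. The margin was small, as NAM/PN 3 was at 24.8 CPM and vehicle 3 at 24.7. Its log2 fold change was 0.97 (SE 0.37, adjusted p = 0.338), and Tubb3 differed by 0.62 (SE 0.56, adjusted p = 0.867). Of 10 Schwann cell markers, 4 (S100b, Cdh19 and Foxd3 among them) had 0 counts and 0 of the 5 tested were called by edgeR or DESeq2 or had an unadjusted p under 0.05, Ngfr with an adjusted p of 0.978 and Pmp22 with 0.708. The sum of the 10 was 19.4 to 74.6 CPM with vehicle and 29.5 to 58.2 with NAM/PN.

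Of 10 endothelial markers, 3 (Emcn, Flt1 and Cldn5) had 0 counts and 1 was tested, Egfl7, with an adjusted p of 0.687, and the sum was 3.46 to 27.0 CPM with vehicle and 9.85 to 29.6 with NAM/PN. Of 10 hematopoietic markers, 8 had 0 counts, including Ptprc, and Cd68 and Laptm5 were tested and not called, with a sum of 2.47 to 17.1 CPM with vehicle and 5.14 to 12.7 with NAM/PN. Of 10 markers of fibro-adipogenic cells, 4 (Pdgfra, Dpt, Lum and Clec3b) had 0 counts and 3 were tested. Of these, the collagen gene Col3a1 was called lower (log2 fold change -1.17, SE 0.19, adjusted p = 0.00255) and Cd55 was not (adjusted p = 0.248), though DESeq2 called both. The sum of that list was 156 to 191 CPM with vehicle and 62.1 to 98.6 with NAM/PN. Col3a1 alone made up most of it, at 149, 156, 166 and 149 CPM with vehicle and 66.6, 84.4, 72.0 and 53.7 with NAM/PN. The difference in this sum is therefore mainly that of 1 gene. Of 10 mural markers, 2 had 0 counts and 0 of 4 tested were called by edgeR or DESeq2, with 1 at an unadjusted p under 0.05 (Des, called without vehicle 3 and NAM/PN 4 as above), Des and Notch3 (adjusted p = 0.779) having the most counts. Des, which myogenic cells express too, made up 89.8% to 95.6% of the mural sum, and the sum of the other 9 genes was 46.1 to 102 CPM with vehicle and 33.4 to 62.1 with NAM/PN. The 6 untested mural markers, Rgs5 and Pdgfrb among them, reached at most 4.59 CPM in a library. The part of other cells in the Gal difference was not tested beyond these levels.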

How the data were processed

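RNA of 8 libraries was measured with a QuantSeq 3′ kit. Reads were aligned by the authors with RNASTAR to the GRCm38 genome, and htseq-count (HTSeq 2.16.2 per the labels) assigned them to genes. The deposited values are raw counts, without normalization or a filter. The annotation release and strand setting of the counting are not given in the sources used here. Reads at the 3′ end give about 1 tag per transcript, so counts were not divided by length.

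Symbols and positions came from GENCODE M21, which held 55227 of 55487 identifiers and 12058 of the 12060 tested. Libraries were grouped by their labels. Counts were filtered with filterByExpr (minimum count 10, minimum total count 15), normalized by TMM and compared with edgeR 4.0.16 in R 4.3.3 (glmQLFit, glmQLFTest, no block), the design the study gives for mouse muscle, since it names none for cultured MuSCs, with p-values adjusted by Benjamini-Hochberg across the 12060 genes, and genes under 0.05 were called. Adjusted p-values are from this fit unless an alternative is named beside them. Log2 CPM used a prior count of 2. Promoters are those of RefSeq. Figures were drawn with matplotlib 3.10.9.

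Library totals were 6472484 to 10163101 counts, and the floor was 3 counts per library. Intervals are at 95%. Pools pair the conditions by design, as both libraries of a pool share their mice. The correlation of deviations from the condition means between libraries of a pool was -0.0332 to 0.0313.

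Gal, the gene lists and the tests were chosen with earlier results of these data known. Genes named are Gal and the galanin list, called genes and the 3 with the most counts per list (2 per marker list), the 10 most like Gal, the 3 above and below it by fold change, and tested neighbors within 200 kb. Genes said to be named after their values were seen are outside this rule, as are untested genes and genes at 0 counts that are named as examples and CT010467.1. Some genes that this rule would name are not reported here. Alternatives were a replicate block, DESeq2 1.42.0 (size factors and Wald test), upper-quartile normalization, no filter, a robust fit and thinned counts. Further ones were removal of CT010467.1 and the genes of the mitochondrial genome, a threshold of 0.1, a prior count of 0.5 and Pearson correlation for likeness. Each library and each pool was also left out. The fit without vehicle 3 and NAM/PN 4 was added after the data were seen.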

Additional observations from a re-analysis of the deposited data

Results flagged for a closer look

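Of 123 groups of 4 values examined, 12 held 1 value far from the other 3, by the 95% critical value of Dixon for the gap over the range, and chance alone would give about 6.15. For Gal, the log2 ratio of NAM/PN to vehicle in pool 3 was 3.24, against 2.34 to 2.49 in the other pools. Its levels in neither condition held such a value. In the same pool, the vehicle library gave 18.7% of its counts to the ribosomal RNA gene CT010467.1, against 9.09% to 9.59% in the other vehicle libraries.

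NAM/PN 4 held 5 of the values. There Mymk was at 31.5 CPM (9.90 to 11.3 in the other NAM/PN libraries), Tnnc2 at 16.1 CPM (2.59 to 4.32), Furin at 242 CPM (98.7 to 119), Sct at 109 CPM (51.2 to 55.7) and Laptm5 at 0 CPM (5.54 to 6.55). Apln was at 24.9 CPM in NAM/PN 1 (19.99 to 20.7 in the others). With vehicle, Il6st was at 64.1 CPM in pool 4 (100 to 107 in the others), Sox11 at 263 CPM in pool 3 (192 to 195), Gm9625 at 5.31 CPM in pool 3 (0.124 to 0.83) and Gm13868 at 1.31 CPM in pool 4 (0 in the others).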

How the results depend on the processing

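The log2 fold change of Gal lay between 2.40 and 2.75 over its 21 alternatives, and it was 2.61 when pool was added as a replicate block. The block gave 156 called genes, 130 of them shared with the 154, and in the gene lists it added Mybph (-3.08) to the called myocyte markers, which were then 9, and ended no call. Among the genes most like Gal or near it in fold change it ended those of Specc1 (log2 fold change 1.46) and Gm9625 (4.57).

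Over all genes, the number of calls was 388 with DESeq2 (124 higher, 264 lower), 366 without a filter (135 higher, 231 lower), 244 at a threshold of 0.1 (65 higher) and 236 without vehicle 3 and NAM/PN 4 (65 higher, 171 lower). Leaving out 1 library or pool, or those 2 libraries, gave 42 to 236 calls (5 to 65 higher, 37 to 171 lower), 0 to 2 calls in the lists other than markers, 4 to 8 called myocyte markers and, for pools only, 4 to 7 shared genes among the 10 most like Gal. Without vehicle 3 and NAM/PN 4 those lists held 1 call, Sik1. Without a filter they held 6, which added Gnai1, Pam, Ptprn and Qrfp. With Pearson correlation, 2 of the 10 genes most like Gal were shared. The causes of these shifts were not tested.

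Depth limits the receptors and most other precursors, which had few or 0 counts. The data have 4 pools, 1 time point and no arm with nicotinamide or pyridoxine alone. The difference is therefore that between NAM/PN as a combination and vehicle at 72 hours. The labels give no DMSO content for NAM/PN, so the part of DMSO in this difference cannot be told apart.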
